A study of Danio rerio with 30 samples.

Results

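The wound that a micro-knife leaves in the zebrafish telencephalon was compared between 7 and 3 days post injury (dpi), the interval over which the early reaction to the skull injury was followed into its later phase. The groups compared hold 7 samples, 3 taken at 7 dpi and 4 taken at 3 dpi, chosen by their labels out of the 29 samples (30 arrays) of the series. All fish were wild-type and 3 to 5 months old by the labels, and the skull injury is a stab wound, made in each hemisphere of anaesthetized fish by a small blade that enters from above near the midline. No uninjured fish entered the test. The 4 intact samples, the skull injury at 1 and 2 dpi (3 samples each) and the nostril injury at 7 and 3 dpi (3 samples each), in which a capillary reaches the telencephalon through the nose, are given beside it as levels. The skull samples at 1 and 2 dpi also entered the fit, where they shape the estimate of the spread and so each SE and p-value of the comparison. A separate test of the difference between injuries used the nostril samples. The sources used here do not say whether a sample was 1 fish or a pool of fish, nor at what time of day tissue was taken, and each p-value therefore reflects how these samples varied, whatever they were. RNA came from the whole telencephalon, and a lower value may mean fewer cells of a type or less RNA per cell, which cannot be told apart in bulk tissue.

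Several programs known from injured brain meet in this tissue. Microglia, the resident macrophages, and macrophages that enter from blood take up debris, secrete chemokines and complement C1q, and present antigen. Interferons switch on a set of antiviral genes, among them the Mx GTPases, and the immunoproteasome, which cuts peptides for MHC class I. Ependymoglia are the radial stem cells of the adult fish brain, and cells of the oligodendrocyte lineage make myelin. The circadian clock runs in nearly every fish tissue as a loop in which Bmal and Clock proteins activate the *per*, *cry* and *nr1d* genes, whose products repress the activators again.

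Levels are deposited log2 intensities, and changes are differences of group means on that scale (7 dpi minus 3 dpi, with the standard error, SE). A transcript is 1 probe set of the array. Called means an adjusted p under 0.05 in limma, adjusted over 40670 transcripts, those that exceeded a linear mean of 20 in at least 1 of the 9 groups. A transcript can pass through 3 dpi or 7 dpi alone. The counts below or above 0 and the medians of the gene lists are therefore not independent of this filter. By this rule 289 transcripts fell (0.711%) and 900 rose (2.21%) at 7 dpi relative to 3 dpi. Among the 14372 genes that 1 probe set could stand for, 78 fell (0.543%) and 350 rose (2.44%), and 736 of the called transcripts carry no single gene symbol. At an unadjusted p under 0.05, 890 genes were lower (6.19%) and 2666 higher (18.5%). In 737 genes every 7 dpi value lay below every 3 dpi value (5.13%) and in 2079 every one lay above (14.5%). These shares over all tested genes are the background for the counts of each gene list below. The criteria of the study (unadjusted p under 0.05, fold above 1.6, linear mean above 20 in a compared group) took 896 transcripts as lower and 1496 as higher. Of the calls 75.7% were rises, against 56.3% after further quantile normalization, 52.3% after cyclic loess and 82.8% after centring on the median, so the excess of rises depended on the scaling.

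The 3 dpi arrays differed more among themselves than those of any other group, and the number of calls moved widely with the arrays that were fitted. Their mean variance was 0.173, against 0.0880 at 7 dpi and 0.0732 to 0.100 in the other groups, and they correlated with one another at 0.937 to 0.962, against 0.973 to 0.980 at 7 dpi. Replicates 1 and 3 of 3 dpi correlated least with the 7 dpi arrays (mean r 0.946 and 0.945, against 0.960 for replicates 2 and 4). The count of 1189 called transcripts was 1 when only the 7 arrays were fitted and 1 without 7 dpi replicate 2, 72 without 7 dpi replicate 3, 390 without 7 dpi replicate 1 and 301 without 3 dpi replicate 1, but 4048 without 3 dpi replicate 2. Skull 2 dpi replicate 3, which enters only through the estimate of the spread, stood apart with a mean photoreceptor gene level of 7.43, against 3.96 to 4.29 on the other skull arrays, and 573 transcripts were called without it. Of the 63 called genes named below, none was still called with only the 7 arrays or without 7 dpi replicate 2, 6 were without 7 dpi replicate 3, and 62 were without 3 dpi replicate 2. With group weights 30 of the 63 were still called and with no filter 36. None of the 63 changed direction in any fit that held it, the filter on the mean over all arrays leaving out 2 of them.

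**Figure D1:**
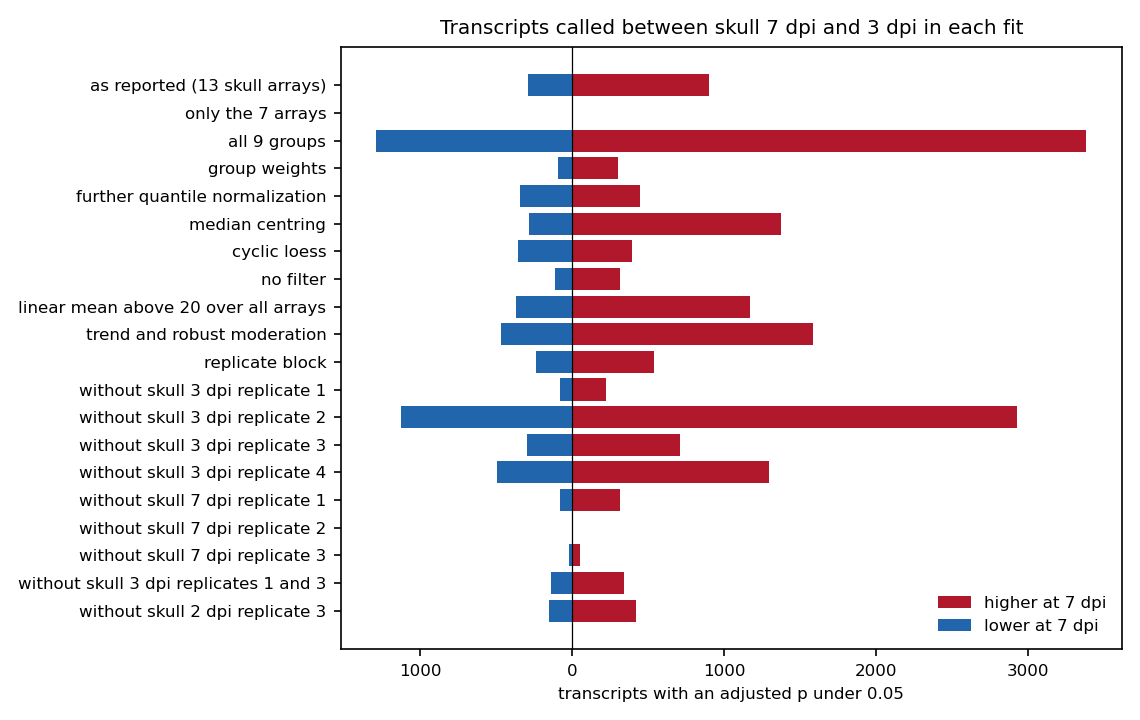
Transcripts with an adjusted p under 0.05 between skull 7 dpi and 3 dpi in each fit, with falls drawn to the left and rises to the right of 0. The reported fit gives 289 falls and 900 rises, the fit of only the 7 arrays and the fit without 7 dpi replicate 2 give 1 call each, and that without 3 dpi replicate 2 gives 4048.

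Markers of microglia and macrophages were lower at 7 dpi. Of 29 tested markers 27 were below 0, 6 fell and none rose, with a median change of -0.80 against 0.09 over all tested genes. In 16 of the 29 every 7 dpi value lay below every 3 dpi value, and in 1, *aif1l*, every one lay above (change 0.28, adjusted p = 0.165, named after its value was seen). The gene of a lysosomal membrane protein of blood cells, *laptm5*, read 7.77, 7.11 and 7.26 at 7 dpi, against 8.88, 9.32, 8.80 and 8.91 at 3 dpi. It fell by 1.59 (SE 0.19, adjusted p = 0.00937), which is 3.02-fold on the linear scale. All 3 samples at 7 dpi thus lay more than 1 log2 unit below the lowest at 3 dpi. Their mean of 7.38 was above the intact mean of 7.07, but only replicate 1 lay above the intact range of 6.72 to 7.31. The chemokine gene *ccl34b.1*, a marker of zebrafish microglia, read 10.04, 9.99 and 9.96 at 7 dpi, against 10.92, 11.12, 10.99 and 10.66 at 3 dpi (change -0.93, SE 0.15, adjusted p = 0.0167). The values at 7 dpi were those of the intact brain, whose samples ranged over 9.75 to 10.18.

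The other 4 falls in this list belong to myeloid control and to phagocytosis. The phagocytic receptor gene *havcr1* fell to 5.86 ± 0.51 at 7 dpi, against 7.23 ± 0.43 at 3 dpi (SD, n = 3 and 4, adjusted p = 0.0288). *spi1b*, which encodes a PU.1 factor needed for the myeloid lineage, fell to 5.59 ± 0.31, against 6.70 ± 0.32 (adjusted p = 0.0331). *ptpn6*, the gene of a phosphatase that restrains signaling in blood cells, fell by 1.24 (SE 0.27, adjusted p = 0.0368), and *hcls1*, the gene of an actin regulator of blood cells that was named after its value was seen, by 0.77 (SE 0.19, adjusted p = 0.0473). Not every common marker was called. The macrophage pore-forming protein gene *mpeg1.1* overlapped, with 7.34, 6.53 and 5.99 at 7 dpi, against 7.93, 8.98, 7.66 and 7.32 at 3 dpi (change -1.36, adjusted p = 0.0662), and *lcp1*, the gene of L-plastin, changed by -0.37 (SE 0.23, adjusted p = 0.36), or -0.16 without 3 dpi replicate 2.

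Averaged over its 29 members, the list stood at 6.09 in intact brain, at 7.15, 7.14 and 7.23 at 1, 2 and 3 dpi, and at 6.44 at 7 dpi. Each 7 dpi sample (6.66, 6.34 and 6.31) was below each 3 dpi sample (7.27, 7.69, 6.92 and 7.04), and replicates 1 and 2 of 7 dpi lay above the highest intact sample (6.32). Of the 6 called markers, *laptm5* alone was called without 7 dpi replicate 3 and none without 7 dpi replicate 2 (adjusted p 0.0523 to 0.144), *laptm5* and *ccl34b.1* without 3 dpi replicate 1, and all but *spi1b* and *hcls1* without 7 dpi replicate 1. Without 3 dpi replicate 3 or skull 2 dpi replicate 3, *ptpn6* and *hcls1* were lost (highest adjusted p 0.0554 and 0.0633).

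**Figure D2:**
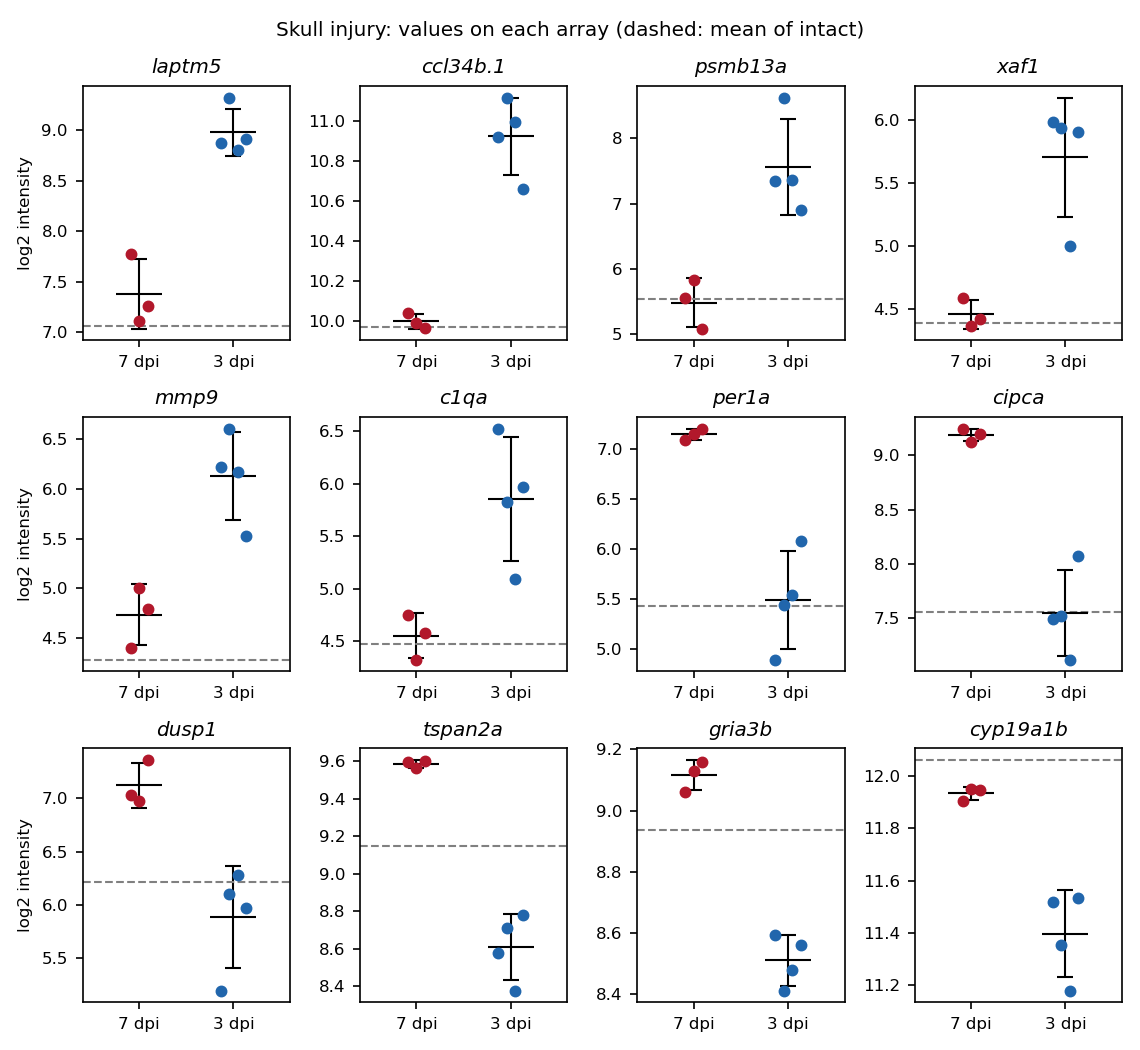
Log2 intensity of 12 genes on each skull injury array, 7 dpi in red and 3 dpi in blue, with the mean and SD of each group as bars and the intact mean as a dashed line (axes do not start at 0). All 12 genes separate the 3 samples at 7 dpi from the 4 at 3 dpi. They were chosen among called genes, of which all 78 falls and 349 of the 350 rises do so. The separation was thus set by that choice. Over all tested genes 5.13% lay below and 14.5% above without overlap. *laptm5* reads 7.11 to 7.77 at 7 dpi and 8.80 to 9.32 at 3 dpi, and *per1a* 7.09 to 7.20 at 7 dpi and 4.89 to 6.08 at 3 dpi.

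Of 38 matched interferon response genes 24 passed the level filter, which a gene high at 3 dpi alone can pass through that group. This favours falls, so the median and the count below 0 are not independent of the filter. The 24 tested members had a median change of -0.87. Of these, 22 were below 0, 8 were lower at an unadjusted p under 0.05 and 7 did not overlap, but 1 of the 24 fell. That gene, *xaf1*, encodes an interferon-induced partner of an inhibitor of apoptosis and fell by 1.25 (SE 0.27, adjusted p = 0.0368), with 4.58, 4.36 and 4.42 at 7 dpi, against 5.99, 5.93, 5.00 and 5.90 at 3 dpi. One sample set this result apart from the markers above. Averaged over the list, 3 dpi replicates 1, 2 and 4 read 6.37, 6.37 and 6.31 and replicate 3 read 5.12, which lies within the 7 dpi values of 5.46, 5.05 and 5.15. Without 3 dpi replicate 3, 7 of the 24 members fell, without replicate 2 of that group 3 did, and without replicate 1 or 4 none did. The list stood at 5.01 in intact brain, at 5.47, 5.36 and 6.04 at 1, 2 and 3 dpi after skull injury and at 5.22 at 7 dpi.

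The antiviral Mx gene *mxc* varied widely at 3 dpi. It read 3.92, 3.07 and 3.63 at 7 dpi, against 5.78, 9.03, 4.93 and 5.23 at 3 dpi, where replicate 2 was more than 3 log2 units above the others (change -2.70, SE 0.74, adjusted p = 0.0654). Without 3 dpi replicate 2 its change was -1.77 and was called (adjusted p = 0.00534), in a fit that called 4048 transcripts in place of 1189. *mxe* averaged 3.303 ± 0.164 at 7 dpi, against 4.610 ± 0.797 at 3 dpi (adjusted p = 0.0682), and *ifi35* 4.29 ± 0.27, against 5.18 ± 0.38 (adjusted p = 0.0626). The gene of *irf7*, a factor that drives type I interferon production, overlapped, with 6.74, 5.51 and 5.26 at 7 dpi, against 8.17, 7.12, 4.98 and 7.46 at 3 dpi (change -1.09, adjusted p = 0.298, and -1.74 with 0.0471 without 3 dpi replicate 3). *ifi44a8*, named after an interferon-induced family and among the 15 largest falls, fell to 3.18 ± 0.12, against 4.53 ± 0.67 (adjusted p = 0.0317), levels near the lower end of the array. Among the skull and intact groups the means of *mxc*, *mxe* and *ifi44a8* passed the level filter at 3 dpi alone. Their lower values at 7 dpi are therefore not independent of the filter.

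Antigen presentation genes moved with these lists in part. Among 22 class I and immunoproteasome genes 3 fell and none rose (median -0.21). The largest fall among the 78 was that of *psmb13a*, which encodes a catalytic subunit of the fish immunoproteasome and read 5.55, 5.83 and 5.09 at 7 dpi, against 7.36, 8.62, 7.36 and 6.91 at 3 dpi (change -2.07, SE 0.40, adjusted p = 0.0274). Its mean of 5.49 at 7 dpi was close to the intact mean of 5.54, and its mean of 7.56 at 3 dpi was above those of 6.21 and 6.34 at 1 and 2 dpi. *psme1*, the gene of a subunit of the proteasome activator PA28, fell by 1.15 (SE 0.24, adjusted p = 0.0317), and its partner *psme2* changed by -0.68 (SE 0.22, adjusted p = 0.0992). The tapasin gene *tapbp.1*, whose product loads peptides onto class I molecules, read 5.86, 5.23 and 5.84 at 7 dpi, against 6.88, 6.46, 6.98 and 6.53 at 3 dpi (change -1.07, adjusted p = 0.0195). Unlike in the interferon list, its 3 dpi replicate 3 was the highest value.

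All 8 class II genes were below 0 (median -0.35), and 1 fell. *ifi30a*, the gene of a lysosomal thiol reductase that unfolds antigens, was at 7.46 ± 0.02 at 7 dpi, against 8.37 ± 0.48 at 3 dpi (adjusted p = 0.0441). The invariant chain gene *cd74a* averaged 10.60 ± 0.17 at 7 dpi, against 11.08 ± 0.23 at 3 dpi (adjusted p = 0.0881). Both means at 7 dpi were above those of intact brain (6.72 for *ifi30a* and 10.33 for *cd74a*). Of the 6 called genes *xaf1*, *ifi44a8*, *psmb13a*, *psme1*, *tapbp.1* and *ifi30a*, none was called without 3 dpi replicate 1, 7 dpi replicate 2 or 7 dpi replicate 3 (adjusted p 0.0503 to 0.135), and *tapbp.1* alone without 7 dpi replicate 1. The call of *xaf1* was also lost without 3 dpi replicate 4 (highest adjusted p 0.05), and that of *ifi30a* without skull 2 dpi replicate 3 (0.0595).

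**Figure D3:**
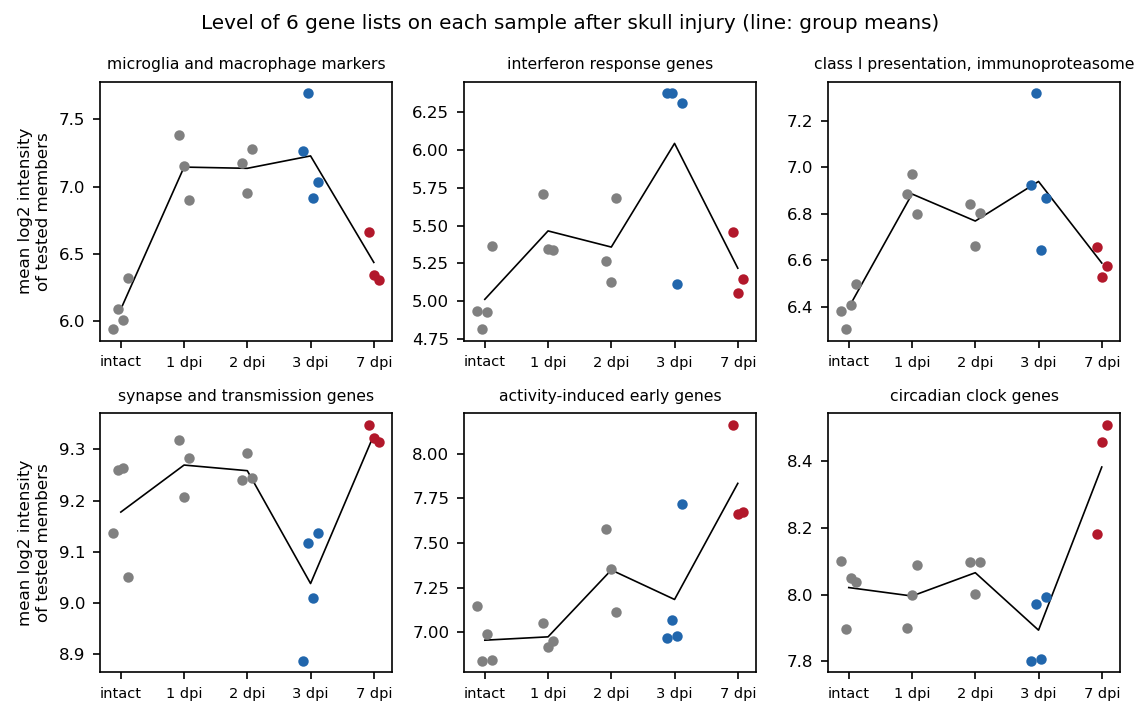
Mean log2 intensity of the tested members of 6 gene lists in each intact and skull injury sample, from intact over 1, 2 and 3 dpi to 7 dpi, with a line through the group means (axes do not start at 0). Microglia and macrophage markers average 6.44 at 7 dpi and 7.23 at 3 dpi, and 3 dpi replicate 3 of the interferon list (5.12) lies among the 7 dpi samples.

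Other innate immune genes changed one at a time. Of 25 matched complement genes 13 passed the level filter, which favours falls here as in the interferon list. Of these 13, 11 were below 0 (median -0.23) and 1 fell. That gene, *c1qa*, a chain of C1q, read 4.75, 4.33 and 4.58 at 7 dpi, against 6.52, 5.83, 5.09 and 5.97 at 3 dpi (change -1.30, SE 0.27, adjusted p = 0.0317). Its partner *c1qb* averaged 4.93 ± 0.21 at 7 dpi, against 5.78 ± 0.11 at 3 dpi (adjusted p = 0.0969). Among 15 neutrophil and phagocyte oxidase markers (median -0.55) 1 fell and 1 rose. The fall was that of *mmp9*, a gelatinase released by neutrophils and other wound cells, which read 4.403, 5.004 and 4.793 at 7 dpi, against 6.216, 6.607, 6.171 and 5.530 at 3 dpi (change -1.40, SE 0.24, adjusted p = 0.0186). The rise was that of *abcb9*, the gene of a lysosomal peptide transporter (change 0.85, SE 0.18, adjusted p = 0.0347). The granulocyte receptor gene *csf3r* changed by -0.77 (adjusted p = 0.122) and the lysozyme gene *lyz* by -1.14, with 7.40, 6.26 and 5.38 at 7 dpi, against 8.07, 7.43, 7.09 and 7.36 at 3 dpi (adjusted p = 0.136, and a change of -0.66 without 7 dpi replicate 3).

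In the list of 56 matrix genes, which shares *mmp9*, the inhibitor gene *timp2a* rose. It read 9.41, 9.28 and 9.06 at 7 dpi, against 8.455, 8.678, 8.532 and 8.476 at 3 dpi (change 0.72, SE 0.11, adjusted p = 0.0155). The fall of *mmp9* and the rise of *timp2a* were the only calls of the list. Its median was 0.02, with 8 genes lower and 8 higher at an unadjusted p under 0.05. Of 14 Toll-like receptor pathway genes *tlr8b* fell, at the edge of the threshold (change -0.996, adjusted p = 0.0497), and *tlr21* changed by -1.37 with overlap (adjusted p = 0.0885). Of 24 chemokine and chemokine receptor genes the microglial *ccl34b.1* was the 1 call. The chemokine gene *cxcl20* had a change of -2.17, but it overlapped, with 5.41, 3.87 and 3.90 at 7 dpi, against 6.81, 9.17, 4.99 and 5.32 at 3 dpi, and was -1.31 without 3 dpi replicate 2 (adjusted p = 0.128 and 0.104). Of 48 cytokine, NF-kB and JAK-STAT genes 1 rose, the survival kinase gene *pim1* (change 1.14, SE 0.23, adjusted p = 0.0313), and the receptor gene *tnfrsf9a* changed by -1.09 (adjusted p = 0.0526).

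Of 36 lysosomal and phagocytic genes none was called by limma, with 9 lower and 5 higher at an unadjusted p under 0.05. The granulin gene *grna.1* averaged 6.73 ± 0.25 at 7 dpi, against 8.06 ± 0.61 at 3 dpi (adjusted p = 0.0568), and the cathepsin gene *ctsk* 6.48 ± 0.29, against 7.34 ± 0.49 (adjusted p = 0.0671). In the other direction the proton pump gene *atp6v0d1* averaged 9.95 ± 0.05 at 7 dpi, against 9.42 ± 0.22 at 3 dpi (adjusted p = 0.0519). Of 32 endothelial and mural cell markers the adhesion molecule gene *pecam1a* fell to 6.55 ± 0.22, against 7.73 ± 0.53 (adjusted p = 0.0418), while the median of the list was 0.01. The receptor genes *tlr1* and *cxcr3.2* were not called (changes -0.47 and -0.52, adjusted p = 0.213 and 0.167), and the change of *tlr1* was -0.29 without 3 dpi replicate 2 and -0.26 without 7 dpi replicate 2.

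The 7 calls of these lists, *c1qa*, *mmp9*, *abcb9*, *timp2a*, *tlr8b*, *pim1* and *pecam1a*, were all lost without 7 dpi replicate 2 (adjusted p 0.0726 to 0.146) and all but *timp2a* without 7 dpi replicate 3. Without 3 dpi replicate 1, *mmp9* and *timp2a* were still called, and without 7 dpi replicate 1, *timp2a*, *abcb9* and *pim1*. *tlr8b* was called in 5 of 19 alternatives and was also lost after quantile, median or loess scaling (adjusted p 0.0528, 0.0532 and 0.0577) and without 3 dpi replicate 3 or skull 2 dpi replicate 3, and *pecam1a* without 3 dpi replicate 3 (highest adjusted p 0.0817).

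**Figure D4:**
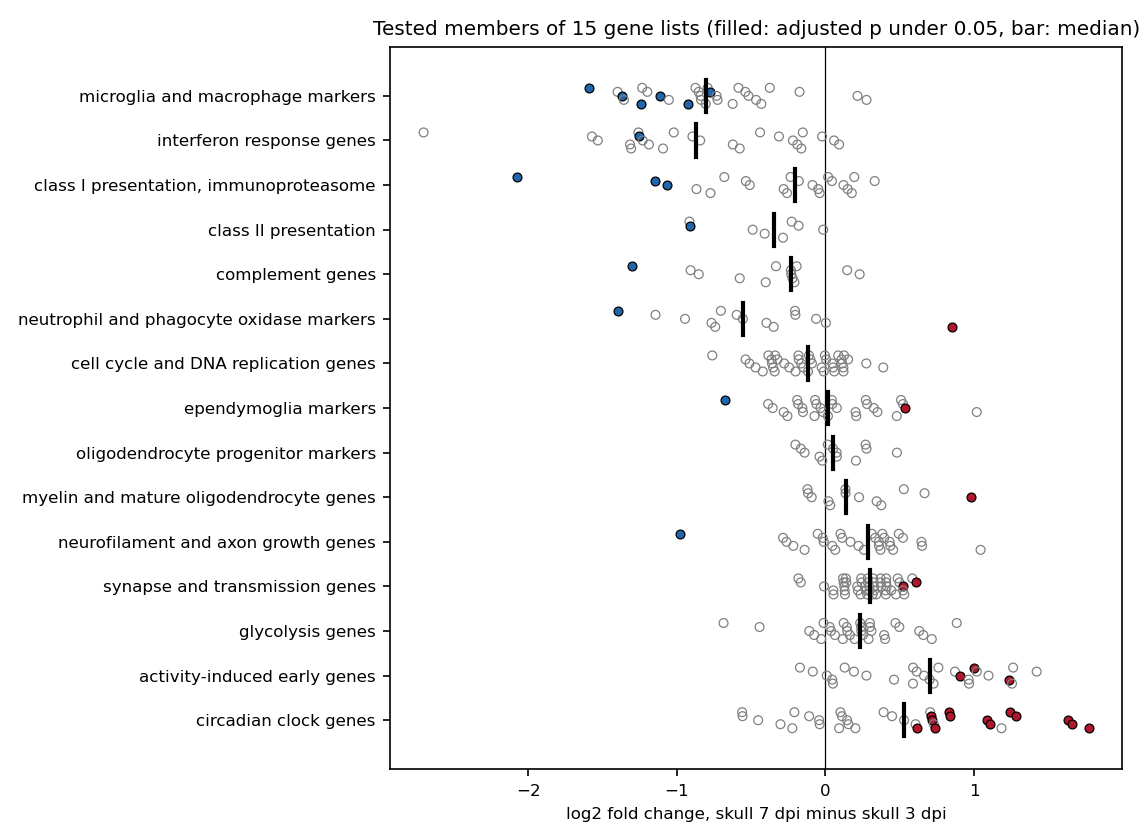
Change from skull 7 dpi minus 3 dpi (log2) of each tested member of 15 gene lists, with members called by limma filled (blue for falls, red for rises), the others open, and the median as a bar. The medians run from -0.87 in the interferon list and -0.80 in microglia and macrophage markers to 0.53 in the clock list and 0.70 in early genes.

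Ependymoglia markers moved in both directions and the list as a whole hardly shifted (29 tested, 1 fell and 1 rose, median 0.02). The gene of brain aromatase, *cyp19a1b*, which marks radial glia of the fish brain, read 11.90, 11.95 and 11.95 at 7 dpi, against 11.52, 11.36, 11.18 and 11.53 at 3 dpi (change 0.54, SE 0.11, adjusted p = 0.0343). *s100b*, the gene of a calcium-binding protein of glia, read 8.98, 9.06 and 9.21 at 7 dpi, against 9.96, 9.78, 9.70 and 9.61 at 3 dpi (change -0.68, SE 0.15, adjusted p = 0.0415). At 7 dpi *cyp19a1b* was thus nearer to its intact mean of 12.06 than at 3 dpi, and *s100b* further from its intact mean of 9.61. The connexin 43 gene *gja1b* overlapped, with 10.53, 10.74 and 10.92 at 7 dpi, against 9.40, 10.59, 8.98 and 9.88 at 3 dpi (change 1.02, adjusted p = 0.0794, and 0.50 without 3 dpi replicates 1 and 3). The glutamine synthetase gene *glula* averaged 10.78 ± 0.10 at 7 dpi, against 10.26 ± 0.22 at 3 dpi (adjusted p = 0.0766), and *gfap* 7.61 ± 0.07, against 7.997 ± 0.479 (change -0.38, adjusted p = 0.352, and -0.17 without 3 dpi replicate 2).

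In the oligodendrocyte lineage 1 gene rose. The tetraspanin gene *tspan2a*, active in maturing oligodendrocytes, read 9.60, 9.56 and 9.60 at 7 dpi, against 8.58, 8.71, 8.38 and 8.78 at 3 dpi (change 0.98, SE 0.11, adjusted p = 0.0078), and it was the 1 call among 13 myelin and mature oligodendrocyte genes (median 0.14). The myelin basic protein gene *mbpa* changed by 0.67 (adjusted p = 0.108), its paralog *mbpb* by -0.12 (adjusted p = 0.605) and the myelin glycoprotein gene *mag* by 0.38 (adjusted p = 0.117). Without 3 dpi replicates 1 and 3 the changes of *mbpa* and *mag* were 0.33 and 0.18. None of 13 progenitor markers was called (median 0.05, with 2 higher and none lower at an unadjusted p under 0.05). The lineage factor gene *olig2* averaged 9.10 ± 0.21 at 7 dpi, against 8.62 ± 0.38 at 3 dpi (adjusted p = 0.151). Its change of 0.48 was 0.62 and called without 3 dpi replicate 2 (adjusted p = 0.0441) and 0.18 without 3 dpi replicates 1 and 3. *sox10* averaged 5.26 ± 0.34 at 7 dpi, against 5.42 ± 0.24 at 3 dpi (adjusted p = 0.641).

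Genes of the cell cycle and DNA replication were mostly lower, none of the 39 tested being called (26 below 0, median -0.12, 7 lower and 1 higher at an unadjusted p under 0.05). The thymidylate synthase gene *tyms* averaged 6.18 ± 0.17 at 7 dpi, against 6.94 ± 0.48 at 3 dpi (adjusted p = 0.0682), and *gins1*, the gene of a subunit of the replicative helicase, 4.46 ± 0.04, against 5.00 ± 0.28 (adjusted p = 0.0613). Of the 3 called glial genes, *tspan2a* was still called without 3 dpi replicate 1, 7 dpi replicate 1, 7 dpi replicate 3 or skull 2 dpi replicate 3, while *s100b* and *cyp19a1b* were lost in each (highest adjusted p 0.0601 to 0.116). *s100b* was also lost without 3 dpi replicate 3 (0.0553), *cyp19a1b* after cyclic loess (0.0624), and all 3 without 7 dpi replicate 2 (0.0523 to 0.128).

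Neuronal genes were higher at 7 dpi by small steps. Of 47 genes of synapses and transmission 44 were above 0 (median 0.30, or 0.22 after further quantile normalization). At an unadjusted p under 0.05, 26 were higher, and 25 lay above without overlap, against 18.5% and 14.5% of all tested genes. Only 2 of the 47 were called, against 2.44% of all tested genes called as rises. The AMPA receptor subunit gene *gria3b* read 9.06, 9.13 and 9.16 at 7 dpi, against 8.59, 8.41, 8.48 and 8.56 at 3 dpi (change 0.61, SE 0.09, adjusted p = 0.0145). The synaptophysin gene *sypa*, whose product sits in synaptic vesicles, read 10.23, 10.27 and 10.35 at 7 dpi, against 9.73, 9.69, 9.77 and 9.85 at 3 dpi (change 0.52, SE 0.09, adjusted p = 0.0207). Both genes were tight within each time, with a fold of 1.52 for *gria3b* and 1.44 for *sypa*. Averaged over the list, the 7 dpi samples read 9.35, 9.32 and 9.31, against 8.89, 9.12, 9.01 and 9.14 at 3 dpi, with 9.18 in intact brain and 9.27 and 9.26 at 1 and 2 dpi. Every 7 dpi sample lay above the highest intact one (9.264). At 3 dpi, replicates 1 and 3 lay below the lowest intact sample (9.05), and replicates 2 and 4 lay within the intact range but below its mean.

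*snap25b*, the gene of a SNARE protein of vesicle release, averaged 10.78 ± 0.02 at 7 dpi, against 10.28 ± 0.21 at 3 dpi (adjusted p = 0.0507), and the RNA-binding protein gene *elavl3* of young neurons 11.62 ± 0.06, against 11.002 ± 0.341 (adjusted p = 0.0559). Without 3 dpi replicate 2 the change of *elavl3* was called (0.74, adjusted p = 0.0125), and without 3 dpi replicates 1 and 3 it was 0.34. *sox11b*, a factor of new neurons, overlapped, with 8.58, 9.90 and 10.08 at 7 dpi, against 8.65, 8.86, 8.01 and 8.37 at 3 dpi (adjusted p = 0.0952). None of 26 neurogenic factors and new neuron genes was called, 7 being higher and none lower at an unadjusted p under 0.05. Of 19 regional transcription factors *bcl11aa* rose by 0.72 (SE 0.13, adjusted p = 0.0226). The pallial genes *tbr1b* (9.91 at 7 dpi and 9.53 at 3 dpi) and *emx1* (7.14 at 7 dpi and 7.51 at 3 dpi) stood well above the level filter, as is usual for telencephalon, and neither was called (adjusted p = 0.095 and 0.0871). *gnal*, the gene of a G protein subunit of olfactory and striatal signaling, rose by 0.71 (SE 0.14, adjusted p = 0.0288). It was the 1 call of 5 tested olfactory epithelium genes (4 above 0, median 0.42).

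The neurofilament light gene *nefla* went the other way. It read 4.43, 5.03 and 5.18 at 7 dpi, against 5.84, 5.55, 6.31 and 5.74 at 3 dpi (change -0.98, SE 0.22, adjusted p = 0.0402), in a list of 30 neurofilament and axon growth genes of which 22 were above 0 (median 0.29). Of the 5 calls, none was kept without 7 dpi replicate 2 or 3 (adjusted p 0.0623 to 0.111). *sypa* and *gria3b* were still called without 7 dpi replicate 1 or 3 dpi replicate 1, and *bcl11aa* without 3 dpi replicate 1, while *sypa* was lost after cyclic loess (0.0504). *nefla* was lost without 3 dpi replicate 1, 3 dpi replicate 3, 7 dpi replicate 1 or skull 2 dpi replicate 3 (0.0595 to 0.116), and *gnal* without 3 dpi replicate 1 or 7 dpi replicate 1.

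The circadian clock gave the largest group of rises. The hour at which tissue was taken is not stated. A different hour at 7 and 3 dpi therefore cannot be told apart from the days after injury, and its part was not tested. Of 35 tested clock genes 13 rose and none fell, 26 being above 0 and 9 below, with a median change of 0.53. In 16 of the 35 every 7 dpi value lay above every 3 dpi value, and in 1, *bmal1b*, every one lay below. The rises lay in the repressing arm of the loop and among its outputs. *per1a*, a period gene, read 7.09, 7.15 and 7.20 at 7 dpi, against 4.89, 5.44, 5.54 and 6.08 at 3 dpi (change 1.66, SE 0.22, adjusted p = 0.0107), which is 3.16-fold. *ciarta*, which encodes a repressor of the Clock-Bmal complex, had the largest rise of all 350, with 9.43, 9.77 and 9.82 at 7 dpi, against 7.25, 8.06, 7.31 and 8.97 at 3 dpi (change 1.77, SE 0.35, adjusted p = 0.0289). *nr1d1*, the gene of the nuclear receptor Rev-erb alpha that represses *bmal1*, read 9.27, 9.93 and 10.12 at 7 dpi, against 7.90, 7.96, 7.76 and 8.94 at 3 dpi (change 1.63, SE 0.30, adjusted p = 0.0226). In these 3 genes 3 dpi replicate 4 was the highest of its group, yet below every 7 dpi sample.

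The related receptor genes *nr1d4b* and *nr1d4a* rose by 1.24 and 1.09 (SE 0.20 and 0.15), the output factor gene *dbpb* by 1.28 (SE 0.23) and the repressor gene *bhlhe41* by 1.11 (SE 0.24). *ciartb* and the cryptochrome gene *cry2* rose by 0.84 and 0.83 (SE 0.12 and 0.13). The remaining 4 calls, named because they complete the count, *per1b*, *tefb*, *dbpa* and *nr1d2b*, rose by 0.74, 0.72, 0.71 and 0.62. The repressor gene *cipca*, which is not in the list, was among the 15 largest rises, with 9.24, 9.12 and 9.20 at 7 dpi, against 7.49, 7.52, 7.12 and 8.07 at 3 dpi (change 1.64, SE 0.21, adjusted p = 0.00983). The 2 *bmal1* genes, singled out after their values were seen because they form the activating arm, lay on the other side of 0. Further members of the list also lay below 0 and are not named here. *bmal1b* read 5.51, 6.09 and 5.94 at 7 dpi, against 6.57, 6.36, 6.43 and 6.28 at 3 dpi (change -0.56, SE 0.16, adjusted p = 0.0682), and *bmal1a* changed by -0.56 with overlap (SE 0.23, adjusted p = 0.179).

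Within the skull injury it was 7 dpi that lay highest here. Over all tested circadian clock genes the 7 dpi samples averaged 8.18, 8.458 and 8.51, against 7.80, 7.97, 7.81 and 7.99 at 3 dpi, with group means of 8.02 in intact brain and 7.996 and 8.066 at 1 and 2 dpi. None of the 13 risen clock genes was nearer to its intact mean at 7 dpi than at 3 dpi, their median distance from it being 0.98 at 7 dpi and -0.11 at 3 dpi. These 13 were chosen by their rise, on the same values. After nostril injury the same 13 genes were higher at 7 dpi than at 3 dpi by 0.30 (*nr1d2b*) to 1.88 (*nr1d1*). *per1a* was higher by 1.78 (SE 0.24, from a fit that pools the spread of both injuries). The difference from the skull change of *per1a* was -0.12 (SE 0.32, adjusted p = 0.932).

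Early genes induced by neuronal activity were higher as well (27 tested, 25 above 0, 3 rose, median 0.70). The MAP kinase phosphatase genes *dusp1* and *dusp2* rose by 1.23 and 1.00 (SE 0.23 and 0.19, adjusted p = 0.0226 and 0.027), and the early growth response gene *egr3* read 10.272, 10.302 and 10.478 at 7 dpi, against 9.341, 9.577, 8.999 and 9.858 at 3 dpi (change 0.91, adjusted p = 0.0296). *fosb* averaged 7.51 ± 0.30 at 7 dpi, against 6.54 ± 0.45 at 3 dpi (adjusted p = 0.0503). Over the list, 3 dpi replicate 4 (7.72) lay among the 7 dpi samples (8.16, 7.66 and 7.68), and replicates 1, 2 and 3 of 3 dpi were at 6.97, 7.07 and 6.98. After nostril injury the median change of the same list was larger, at 1.17, with mean levels of 8.12 at 7 dpi and 6.95 at 3 dpi. Of 20 genes that respond to glucocorticoids 2 rose, *per1a* and *dusp1*, which the lists above also hold, and the stress gene *ddit4* changed by 1.04 (SE 0.26, adjusted p = 0.0511).

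Without 7 dpi replicate 2 none of the 17 called genes of the clock and early groups was called (adjusted p 0.0563 to 0.11), and without 7 dpi replicate 3 only *per1a* and *cipca* were. Without 7 dpi replicate 1, 8 of the 17 were kept and without 3 dpi replicate 1, 9 were, *per1a*, *cipca*, *nr1d4a*, *nr1d4b*, *ciartb*, *cry2* and *tefb* among both. *bhlhe41* was also lost without 3 dpi replicate 3 or skull 2 dpi replicate 3 (adjusted p 0.0604 and 0.0539), and *bhlhe41* and *nr1d2b* after quantile or loess scaling (0.0505 to 0.069). The rise of *ciarta* was 1.15 without 3 dpi replicates 1 and 3.

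**Figure D5:**
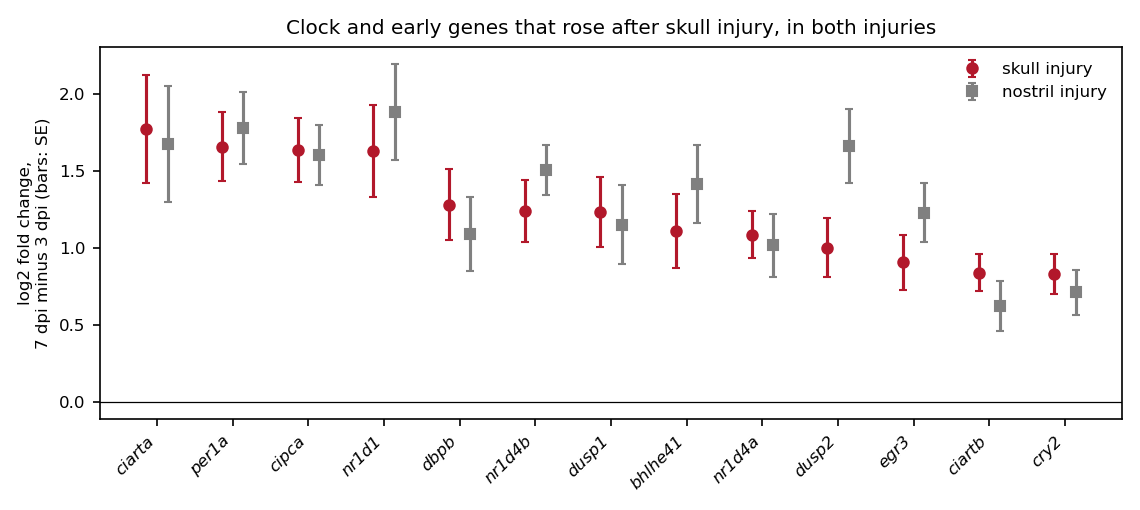
Change from 7 dpi minus 3 dpi (log2, with SE) of 13 clock and early genes called after skull injury, for skull injury (red circles) and nostril injury (grey squares). All 26 points lie above 0. The genes were chosen as called rises after skull injury, so the sign of their skull points was set by that choice. The nostril points run from 0.62 for *ciartb* to 1.88 for *nr1d1*. *per1b*, *tefb*, *dbpa* and *nr1d2b* are not drawn, the last with the smallest nostril change of the 13 risen clock genes. Each nostril SE pools the spread of both injuries.

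Further genes among the 15 largest changes in each direction belong to none of these lists. *c1ql1*, whose mammalian counterpart is secreted and organizes synapses, read 6.97, 6.48 and 5.61 at 7 dpi, against 8.199, 8.883, 7.559 and 8.116 at 3 dpi (change -1.84, SE 0.36, adjusted p = 0.0293), with an intact mean of 5.85 and 8.65 at 1 dpi. The keratin gene *krt18b* fell to 7.45 ± 0.28, against 8.72 ± 0.45 (adjusted p = 0.0288), beside 7.41 in intact brain and 8.85 at 1 dpi. In both the means at 1, 2 and 3 dpi lay above the intact mean. *wdr46*, the gene of a nucleolar protein of ribosome assembly, read 6.51, 6.93 and 6.84 at 7 dpi, against 8.11, 7.64, 8.59 and 7.77 at 3 dpi (change -1.27, adjusted p = 0.0182), and was high at 3 dpi alone, with means of 7.12, 7.11 and 7.06 in intact brain and at 1 and 2 dpi.

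The cap-binding factor gene *eif4eb* followed another course. It read 4.94, 5.02 and 5.22 at 7 dpi, against 6.512, 6.399, 6.262 and 5.976 at 3 dpi (change -1.23, SE 0.14, adjusted p = 0.0078), while intact brain and 1 and 2 dpi averaged 6.27, 6.25 and 6.11. It thus moved away from the intact level at 7 dpi. *ogfr2* and *si:zfos-741a10.3* fell by 1.36 and 1.28 (adjusted p = 0.0345 and 0.018), and a further gene, known only by a clone name that is not printed here, by 1.27 (adjusted p = 0.0493). The mean of that further gene passed the level filter at 3 dpi alone among the skull and intact groups, so its fall is not independent of the filter. Among the rises, the actin-related protein gene *actr3b* read 7.48, 6.83 and 6.78 at 7 dpi, against 5.58, 5.91, 6.21 and 5.53 at 3 dpi (change 1.22, adjusted p = 0.0288), and the fibulin gene *efemp2b*, whose product helps build elastic fibres, rose by 1.13 (adjusted p = 0.0282). The rises of the CAAX protease gene *rce1a* (1.28, and 0.85 without 3 dpi replicates 1 and 3), *zgc:122979* (1.26), the arrestin family gene *arrdc3a* (1.24) and the ubiquitin-conjugating enzyme gene *ube2b* (1.23) had adjusted p of 0.0406, 0.0176, 0.0417 and 0.0354.

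*eif4eb* was called in every fit except those of the 7 arrays alone and without 7 dpi replicate 2 (adjusted p = 0.128 and 0.0523), and it was the 1 of the 13 called without 7 dpi replicate 3. Without 3 dpi replicate 1 or 7 dpi replicate 1, 4 of the 13 were called, *eif4eb* and *si:zfos-741a10.3* in both. The call of the gene with the clone name was also lost without 3 dpi replicate 2 or 3 (0.05 and 0.0826), that of *ube2b* without 3 dpi replicate 3, those of *arrdc3a* and *rce1a* without 3 dpi replicate 4 (0.0504), and those of all 4 together with *ogfr2* without skull 2 dpi replicate 3 (up to 0.0689). After further quantile normalization or cyclic loess those 4 were lost too (up to 0.0633 and 0.0641).

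Lists of metabolism and stress held few calls. None of 31 glycolysis genes was called (25 above 0, median 0.23, 12 higher at an unadjusted p under 0.05), the phosphofructokinase gene *pfklb* averaging 8.22 ± 0.13 at 7 dpi, against 7.59 ± 0.20 at 3 dpi (adjusted p = 0.0512). Of 90 respiratory chain genes *ndufa4b* rose by 0.47 (adjusted p = 0.0406), and 17 were lower and 7 higher at an unadjusted p under 0.05. Of 26 p53 and apoptosis genes the effector gene *baxa* and the stress-induced gene *sesn1* rose by 0.57 and 0.69 (adjusted p = 0.034 and 0.0426). The iron exporter gene *slc40a1* was the 1 call of 27 oxidative stress and metal response genes (change 0.51, adjusted p = 0.0416), and the heat shock factor gene *hsf2* the 1 call of 26 heat shock genes (0.62, adjusted p = 0.0384). All 5 were lost without 3 dpi replicate 1, without any 1 of the 7 dpi replicates, without skull 2 dpi replicate 3 and after quantile or loess scaling (adjusted p 0.0525 to 0.14), and *slc40a1*, *hsf2* and *ndufa4b* also without 3 dpi replicate 3 (up to 0.0613).

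By limma no gene was called among 61 ribosomal protein genes (3 lower and 2 higher at an unadjusted p under 0.05, *rpl38* changing by -0.47 with an adjusted p = 0.0508), 26 Notch and her genes (2 lower, 1 higher), 27 cholesterol synthesis genes (1 lower, 2 higher), 22 lipid transport genes (5 lower, 1 higher) or 13 coagulation genes (4 lower, none higher). Markers of other cells and neighbouring tissue gave no call among 14 red blood cell, 8 T and NK cell, 2 B cell, 24 skin, cartilage and muscle, 25 hypothalamic neuropeptide and 19 photoreceptor and pineal genes. The 5 tested olfactory epithelium genes did hold 1 call, the rise of *gnal* given above, with 2 higher and none lower at an unadjusted p under 0.05. Averaged over that list, the 7 dpi samples (7.28 to 7.31) lay above those at 3 dpi (6.855 to 7.20), with an intact mean of 7.145. At an unadjusted p under 0.05, 2 red blood cell, 1 skin, cartilage or muscle and 3 neuropeptide genes were lower, and 1 T and NK cell, 1 skin, cartilage or muscle, 5 neuropeptide and 1 photoreceptor gene were higher. Over all tested genes 6.19% were lower and 18.5% higher at that threshold. Hemoglobin genes were lower without a call, *hbba2* with 7.11, 5.41 and 6.87 at 7 dpi, against 7.55, 7.78, 7.30 and 8.03 at 3 dpi (change -1.20, adjusted p = 0.111, and -0.67 without 7 dpi replicate 2) and *hbaa2* with a change of -1.29 (adjusted p = 0.178, and -0.85 without that replicate). The mean level of the red blood cell list was 4.98 to 5.52 at 7 dpi and 5.42 to 5.69 at 3 dpi, and its part in the lower values of the immune lists was not tested. The oxytocin gene *oxt* read 12.42, 12.15 and 12.62 at 7 dpi, against 11.41, 9.29, 11.49 and 12.23 at 3 dpi (adjusted p = 0.157), replicate 2 being the lowest, and its change of 1.29 was 0.69 without that replicate.

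The falls and the rises related differently to the intact brain. Of the 78 genes that fell, 31 were above their intact mean at 7 dpi and 76 at 3 dpi, with median distances from it of -0.05 at 7 dpi and 0.72 at 3 dpi, and 62 (79.5%) were nearer to it at 7 dpi. Of the 350 that rose, 347 were above their intact mean at 7 dpi and 24 at 3 dpi, the median distances being 0.34 at 7 dpi and -0.29 at 3 dpi, and 163 (46.6%) were nearer to it at 7 dpi. Over all 14372 tested genes 52.3% were nearer at 7 dpi. These are descriptions with no test, since the intact samples were left out of the fit. The 78 and 350 genes were also chosen on the same 7 and 3 dpi values. That choice by itself tends to place falls high and rises low at 3 dpi relative to any other group.

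Whether the change over this interval differed from that after nostril injury was tested by the difference of the differences over the 13 arrays of both injuries at 7 and 3 dpi. By limma no transcript was called (0%, smallest adjusted p = 0.447, with 3321 at an unadjusted p under 0.05), and 7 were without skull 3 dpi replicate 2. The 5 genes with the smallest p were *farp2*, *fbln1*, *si:ch211-71n6.4*, *dusp11* and *htra2-14*, all with an adjusted p = 0.447. The guanine nucleotide exchange factor gene *farp2* was higher by 0.55 (SE 0.18) at 7 dpi than at 3 dpi after skull injury and lower by 0.69 (SE 0.14) after nostril injury, and the fibulin gene *fbln1* higher by 0.38 (SE 0.19) and lower by 0.70 (SE 0.14). Of the 5, *dusp11*, the gene of an RNA phosphatase, rose after skull injury (change 0.68, SE 0.12, adjusted p = 0.0225), a call lost without 7 dpi replicate 2 (0.0821) or 7 dpi replicate 3 (0.0965). The changes of *si:ch211-71n6.4* and *htra2-14* were 1.05 and -0.40 after skull injury and -0.40 and 0.45 after nostril injury.

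No test of the difference was run on whole lists, and their medians are given side by side. The microglia and macrophage list had medians of -0.80 after skull injury and -0.64 after nostril injury, *laptm5* changing by -1.42 (SE 0.21) after nostril injury. The interferon list had -0.87 after skull injury and -0.03 after nostril injury, where its mean level was 5.09 at 7 dpi and 5.13 at 3 dpi. The level filter, which a gene can pass through skull 3 dpi alone, favours such a gap. For *mxc* the nostril change was -0.07 (SE 0.81) and for *psmb13a* -0.61 (SE 0.40), with an adjusted p of 0.59 and 0.568 for the difference between the injuries. These nostril SEs pool the spread of both injuries, for *mxc* including its wide spread at skull 3 dpi. Of 20 tested genes that the study itself names, a list chosen on these samples and so no independent evidence of direction, 3 fell (*c1qa*, *ptpn6* and *mmp9*), and 11 were lower and 2 higher at an unadjusted p under 0.05.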

How the data were processed

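Amplified total RNA of whole telencephalon was hybridized to Zebrafish Gene 1.0 ST arrays of Affymetrix. Per the submitters' processing notes and the methods, the authors made the deposited log2 values with RMA in Affymetrix Expression Console 1.3 (background correction, quantile normalization, median polish summary). Group differences in total RNA are thereby removed. Apart from these steps, strong signals may be compressed on an array. The depth of an array has no counterpart here, and the number of arrays limits the precision. The labels gave the groups, and 2 technical arrays of 1 intact sample were averaged.

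Skull injury at 7 and 3 dpi was compared with limma 3.58.1 in R 4.3.3 (lmFit, eBayes) over the 13 skull injury arrays, which share 1 estimate of the spread, with Benjamini-Hochberg adjustment over all transcripts whose linear mean was above 20 in any group. The difference from nostril injury was fitted over the arrays of both injuries at 7 and 3 dpi. The nostril changes came from the same fit, so each nostril SE pools the spread of skull and nostril samples. With 3 samples against 4 an exact two-sided permutation test cannot give a p below 0.0571, so none was used. A gene was represented by the probe set with exactly 1 symbol and the highest mean, and symbols came from the platform annotation. Picked for naming were the 15 largest falls and 15 largest rises without overlap and up to 4 members of each list by p. The genes the study names and the 5 genes with the smallest p for the difference between injuries were picked too. Not every picked list member or study gene is printed, *fga* of the genes the study names being among those left out. The members and lists were chosen with earlier results of these data known. Labels give the age as 3 to 5 months, which differs from the methods. The fit was also run on simulated data. Residuals were shuffled over the 13 skull arrays there, so the wider spread of 3 dpi was not kept and its effect was not tested. Figures were drawn with matplotlib 3.10.9 in Python 3.11.15. Alternatives changed the arrays fitted, weights, scaling, filter and moderation, added the replicate number as a block, and left out each replicate.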

Additional observations from a re-analysis of the deposited data

Results flagged for a closer look

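In the skull 3 dpi group of 4 samples, 110 named genes were examined for 1 sample that stood apart from the other 3 (the gap to the nearest sample over the whole range, against Dixon's critical value for 4 samples), a limit that chance passes in about 1 of 20 groups, and 9 passed. In 4 of them replicate 2 was the highest. *spi1b* had a ratio of 0.9, with 7.18 in replicate 2 and 6.57 in the nearest sample. *lcp1* had 0.854 (7.47, nearest 6.68), *cxcr3.2* had 0.849 (5.38, nearest 4.88) and *grna.1* had 0.868 (8.97, nearest 7.84). Replicate 3 was the lowest in *xaf1* (0.912, with 5.00 and 5.90 in the nearest) and in *baxa* (0.832, with 5.56 and 5.93). Replicate 4 was the lowest in *bmal1a* (0.904, with 6.45 and 7.31) and in a called gene known only by a clone name (0.95, with 3.58 and 4.95). Replicate 1 was the highest in *si:ch211-71n6.4* (0.837, with 6.03 and 5.46).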

How the results depend on the processing

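The count of 1189 called transcripts was 1 with only the 7 arrays, 4671 with all 9 groups, 392 with group weights, 789 after further quantile normalization, 750 after cyclic loess, 426 with no filter and 2050 with trend and robust moderation, and it ran between 1 and 4048 when 1 replicate was left out. Alternatives chosen after seeing the data gave 480 without 3 dpi replicates 1 and 3 and 573 without skull 2 dpi replicate 3. With the replicate number as a block it was 777, of which 513 were shared. Deviations of same-numbered samples correlated at 0.049, 0.011 and -0.082, and no pairing by number was seen. So few samples cannot exclude it. The difference between injuries gave 0 to 7 calls when 1 replicate was left out, and 0 in every other alternative run. Of the genes named, *sox10* changed direction, with -0.16 as reported, 0.00325 without 7 dpi replicate 1 and -0.34 without 7 dpi replicate 3, these being its range when 1 replicate was left out. The cause of these shifts was not tested. Signals near the filter are close to background, and 3 dpi has the widest spread. The promoter motif search was not run.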
